A study of Bos taurus with 12 samples.

Results

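The genes described are 9 members of prolactin signaling in the mammary gland: the prolactin receptor PRLR, its kinase JAK2, the transcription factors STAT5A, STAT5B and ELF5, and the feedback inhibitors CISH, SOCS1, SOCS2 and SOCS3. They were chosen by name, and their probes were found by matching the RefSeq accession of each array probe to the bovine RefSeq gene table. A total of 7 of the 9 genes had a matched probe, with 11 probes in all, among 12639 named genes and 43653 probes. JAK2 and SOCS1 had no matched probe and were not analysed here. For 6 genes (PRLR, STAT5A, STAT5B, ELF5, CISH and SOCS2) the brightest probe was called well above background by Feature Extraction, Agilent's image software, on each of the 12 arrays. The probe of SOCS3 and the 2 dimmer probes of STAT5A were not.

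Prolactin binds its receptor on the secretory epithelial cell and activates the kinase JAK2, which phosphorylates STAT5A and STAT5B. The phosphorylated STAT5 proteins move to the nucleus and drive the milk protein genes, and ELF5 is the epithelial transcription factor that works beside them in forming and maintaining the milk-secreting alveoli. STAT5 also induces CISH and members of the SOCS family, which bind the receptor or the kinase and end the signal. An array measures mRNA only, so the phosphorylation through which STAT5 is activated is outside these data.

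Mammary gene expression was measured on one-color Agilent arrays, 1 array per cow, in 12 multiparous Holstein cows in early lactation. The 6 control cows (CONT) ate a lactation diet without limit. The ration of the 6 restricted cows (REST) was diluted for 4 days with barley straw, to 48% of dry matter, from 24 ± 3 days in milk. On day 3 all 12 cows received 50 µg of lipopolysaccharide (LPS, the endotoxin of Gram-negative bacteria) in 1 healthy rear gland of the udder, and the tissue was biopsied 24 h later. No sample without LPS was analysed here, so the comparison is of diets in inflamed tissue. A biopsy holds several cell types, and fewer cells of a type and less RNA per cell cannot be told apart.

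Values are log2 intensities minus the 75th percentile of the same array, so a log2 signal of 0 is the level of that percentile and negative signals lie below it. Probes differ in how well they bind, so each probe is compared between cows and not with other probes. The 75th percentile intensity was 577.1 to 1184 in CONT and 386.9 to 1082 in REST, and Feature Extraction called 57.6 to 76.0% of probes well above background in CONT and 63.2 to 78.1% in REST. Arrays were on 3 slides: 3 CONT and 1 REST arrays on slide 1, 1 CONT and 3 REST on slide 2, and 2 of each on slide 3. The median intensity of the negative controls was 7.07 to 17.3 on slide 1 and 3.44 to 4.98 on slides 2 and 3. As a check of the labelled tissue, all 8 epithelial markers, the 5 matched milk protein genes and 14 of the 15 matched leukocyte markers were well above background on every array.

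No difference between REST and CONT was found for any gene of the pathway. None of the 7 measured genes passed an adjusted p of 0.05 (limma, Westfall-Young step-down), and the share called among all 43653 probes was 0%. With the Benjamini-Hochberg adjustment (limma) the count was also 0 in the pathway and over all probes. The paper, with a Westfall-Young correction in other software, reports differentially expressed genes between these diets at an adjusted p under 0.05. None of the 7 genes is among the array genes it lists. Its calls were not reproduced here, and the reason was not tested. None of the 7 genes had an unadjusted p under 0.05, where 2.64% of the named genes did, and none of the 11 probes did, where 2.62% of all probes did. The values of REST and CONT overlapped in all 11 probes, and they were fully apart in 0.128% of all probes. The mean was higher in REST for 3 of the 7 genes (PRLR, STAT5A and ELF5) and lower for 4, where 43.5% of the named genes had the higher mean in REST. The count of 3 was 1 with quantile normalization and 1 to 4 with each cow left out. The median log2 fold change (FC) of the 7 genes was -0.08, beside -0.03 for all named genes, and it was -0.19 to 0.06 with each cow left out. The adjusted p of each of the 11 probes was 1 (limma, Westfall-Young) and 0.9999 (limma, Benjamini-Hochberg), and the exact p-values below are two-sided permutation tests over the cows, for which 0.00216 is the lowest possible.

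**Figure D1:**
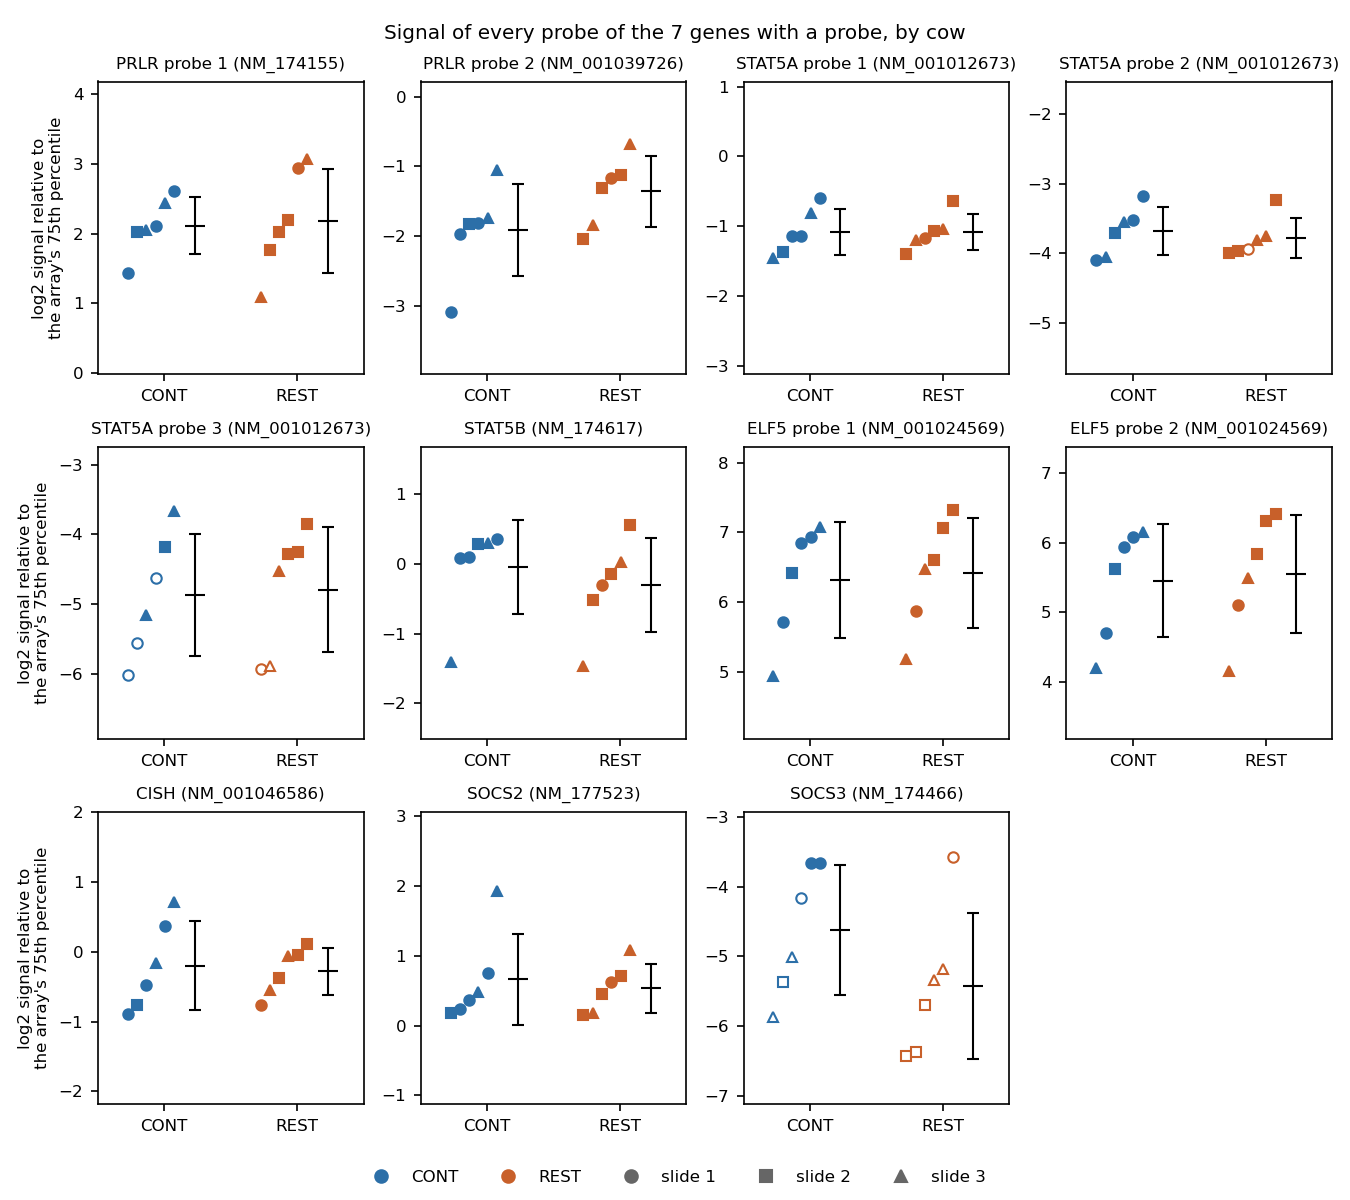
Log2 signal relative to the array's 75th percentile for each of the 11 probes, with 1 point per cow (n = 6 CONT, n = 6 REST), the slide given by the marker and open points where the probe was not well above background. Black marks are the mean and SD of each group, every panel spans the same number of log2 units, and the groups overlap in all 11 panels.

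PRLR, the receptor that binds prolactin and dimerizes to start the signal, is represented by probes for a pair of RefSeq transcripts. The brighter probe (NM_174155) had log2 signals from 1.44 to 2.61 in the CONT cows, with a median of 2.08, and from 1.1 to 3.07 in the REST cows, with a median of 2.11. The REST cows had both the lowest value (cow 1058) and the highest (cow 1018). For this probe the SD was 0.74 in REST (n = 6) and 0.41 in CONT (n = 6). The other PRLR probe had the reverse order (SD 0.50 in REST, 0.66 in CONT), and the spread was not tested. The means were 2.12 and 2.18, a log2 FC of 0.07 (standard error 0.33, 95% interval -0.64 to 0.77; exact permutation test, p = 0.849). The interval spans a FC of 0.642 to 1.71. In the model with slide the value was 0.19, and averaging both PRLR probes gave 0.31.

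The other PRLR probe (NM_001039726) had log2 signals from -3.09 to -1.05 in the CONT cows, with a median of -1.82, and from -2.05 to -0.68 in the REST cows, with a median of -1.24. Only 1 REST cow, 1018, lay above every CONT cow, and CONT cow 1024 lay 1 log2 unit or more below all other cows. The log2 FC was 0.56 (standard error 0.32, 95% interval -0.14 to 1.25; exact permutation test, p = 0.136), a FC of 1.47. This probe had the highest FC of the 11, and it was positive on each slide, at 1.13, 0.34 and 0.14 on slides 1, 2 and 3. Without CONT cow 1024, which is on slide 1, the log2 FC was 0.32, and without CONT cow 0015 it was 0.73 with an unadjusted p of 0.0361 (limma). Both PRLR probes rose and fell together over the 12 cows (r = 0.705, rho = 0.748). Which receptor form each transcript encodes is not given in the files, and the FC of the probes was not tested against each other.

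STAT5A, the main STAT5 protein of the lactating gland, had the smallest spread of the 7 genes over all 12 cows. Without cows 8027 and 1018 the SD of SOCS2 was smaller (0.24, with 0.29 for STAT5A). Its brightest probe (NM_001012673) gave log2 signals from -1.46 to -0.59 in the CONT cows, with a median of -1.15, and from -1.40 to -0.64 in the REST cows, with a median of -1.11. The REST values lay wholly within the CONT range. The log2 FC was 0.00 (0.00418, standard error 0.19, 95% interval -0.40 to 0.41; exact permutation test, p = 0.978). The interval was the narrowest of the 11 probes in log2 units, and it spans a FC of 0.758 to 1.33. A dimmer STAT5A probe gave a log2 FC of -0.10 (standard error 0.20). The dimmest, which was well above background on only 3 CONT and 4 REST arrays, gave 0.08 (standard error 0.47). The dimmest probe was well above background on none of the slide 1 arrays, and with slide as a block its log2 FC was -0.46 (within slides -0.54, 0.05 and -0.80). The 2 brighter probes moved together over the cows (r = 0.808), and the dimmest had an r of 0.169 with the brightest.

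STAT5B, the close relative of STAT5A that is the main STAT5 of growth hormone signaling, had log2 signals (NM_174617) from -1.41 to 0.36 in the CONT cows, with a median of 0.19, and from -1.46 to 0.55 in the REST cows, with a median of -0.22. In each diet 1 cow was far below the rest, CONT cow 8027 and REST cow 1018. The other 5 CONT cows lay between 0.09 and 0.36. The log2 FC was -0.26 (standard error 0.36, 95% interval -1.05 to 0.53; exact permutation test, p = 0.494). Without REST cow 1018 it was -0.03, and without CONT cow 8027 it was -0.53, so that each of these cows moves the value by more than 1.5 times and neither brings it past the threshold.

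ELF5, the alveolar transcription factor, was measured by a pair of probes that followed each other closely over the 12 cows (r = 0.991). The brighter probe (NM_001024569) had log2 signals from 4.95 to 7.08 in the CONT cows, with a median of 6.64, and from 5.19 to 7.32 in the REST cows, with a median of 6.54. The lowest cow of each diet was again 8027 or 1018. The log2 FC was 0.10 (standard error 0.43, 95% interval -0.84 to 1.03; exact permutation test, p = 0.831), and 0.10 (standard error 0.44) for the other probe. With slide as a block it was -0.09, and under quantile normalization -0.04, so that no direction can be given. Between the lowest and the highest cow, in contrast, ELF5 differed by more than 2 log2 units in each diet.

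CISH, the SH2 protein that STAT5 induces and that docks on the receptor, had log2 signals (NM_001046586) from -0.89 to 0.72 in the CONT cows, with a median of -0.31, and from -0.76 to 0.12 in the REST cows, with a median of -0.22. All 6 REST cows lay within the CONT range. The log2 FC was -0.08 (standard error 0.28, 95% interval -0.70 to 0.54; exact permutation test, p = 0.792). It was -0.16 with slide as a block, and 0.10 without CONT cow 0015, the highest of the 12.

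SOCS2, an inhibitor known mostly for restraining growth hormone signaling and also induced by prolactin, had log2 signals (NM_177523) from 0.18 to 1.93 in the CONT cows, with a median of 0.43, and from 0.15 to 1.08 in the REST cows, with a median of 0.54. CONT cow 8027 was the highest and REST cow 1018 the next, both the reverse of their place for STAT5B and ELF5. The log2 FC was -0.13 (standard error 0.29, 95% interval -0.76 to 0.50; exact permutation test, p = 0.745), and 0.13 without CONT cow 8027.

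SOCS3, an inhibitor that responds to cytokines of the IL6 family as well as to prolactin, was at the limit of detection. Its probe (NM_174466) was well above background on 2 CONT arrays and on no REST array. The log2 signals ran from -5.87 to -3.66 in the CONT cows, with a median of -4.59, and from -6.42 to -3.57 in the REST cows, with a median of -5.52. The highest value of all 12 was that of a REST cow, 0078. The measured means were -4.62 and -5.43, and the log2 FC was -0.81 (standard error 0.52, 95% interval -1.93 to 0.32; exact permutation test, p = 0.188). With 4 of the 6 CONT arrays and all REST arrays not well above background, this is a difference of mostly dim signals, and no fold is read from it. The signal followed the slide: the 4 arrays of slide 1 lay between -4.17 and -3.57, and the 8 arrays of slides 2 and 3 between -6.42 and -5.00. With slide as a block the log2 FC was -0.09, within slides it was 0.26, -0.80 and 0.18, and with normexp background correction it was -0.14. Without REST cow 0078, the only REST array of slide 1, it was -1.18 with an unadjusted p of 0.0201 (limma; Benjamini-Hochberg adjusted p = 0.945).

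**Figure D2:**
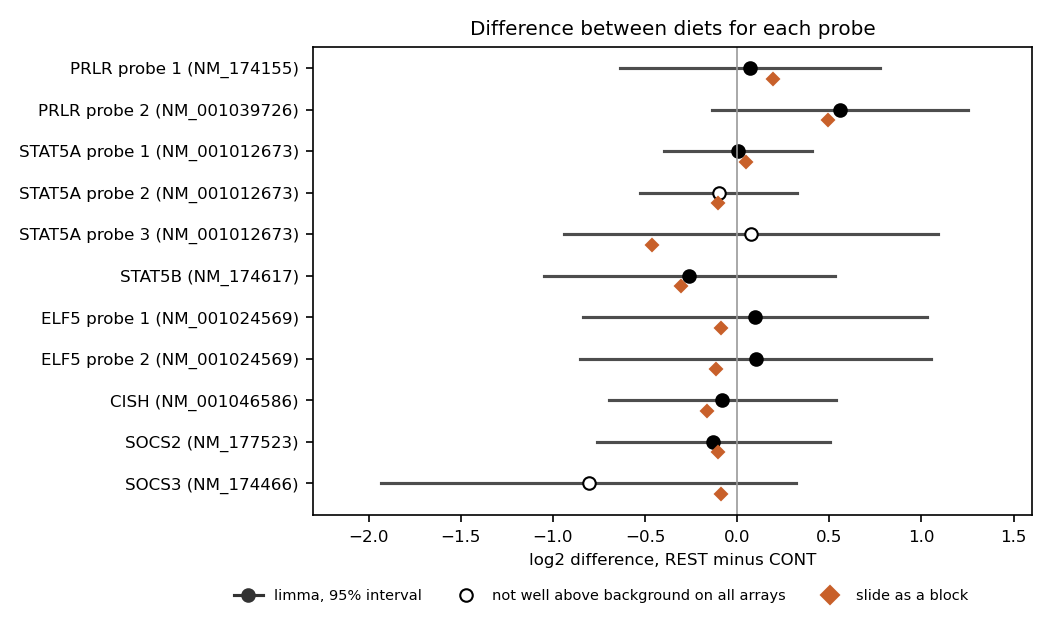
Log2 difference, REST minus CONT, for each of the 11 probes (point, limma, n = 6 per diet) with its 95% interval (line) and the value with slide as a block (diamond), where open points mark probes not well above background on all 12 arrays. Every interval includes 0, and when slide is in the model SOCS3 moves from -0.81 to -0.09 and the dimmest STAT5A probe from 0.08 to -0.46.

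The genes were spread between the cows of a diet to different degrees. Among 9083 named genes well above background on all arrays, the residual SD around the diet means had a median of 0.33 log2 units and a 90th percentile of 0.75. ELF5, at 0.81, stood at percentile 92.0, STAT5B (0.67) at 86.2, PRLR (0.60) at 81.3, SOCS2 (0.53) at 75.6 and CISH (0.51) at 73.9. STAT5A, at 0.29, stood at percentile 40.9, close to the middle. Much of this order rested on cows 8027 and 1018. Without them the SD was 0.30 for STAT5B, 0.24 for SOCS2 and 0.55 for ELF5, while it was 0.29 for STAT5A, 0.57 for PRLR and 0.56 for CISH, so that STAT5B no longer stood apart from STAT5A. Over the 12 cows the signals of STAT5A and STAT5B had an r of 0.488 (permutation test, p = 0.1, adjusted p = 0.214). Their rho was 0.601 (permutation test, p = 0.043, adjusted p = 0.131).

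Over the 15 pairs of the 6 well-measured genes, 2 relations passed a Benjamini-Hochberg adjusted p of 0.05 for r, and both were much weaker without the same 2 cows. STAT5B rose with ELF5 (r = 0.79, rho = 0.601; permutation test, p = 0.0034, adjusted p = 0.0296), and SOCS2 fell as ELF5 rose (r = -0.745, rho = -0.434; permutation test, p = 0.00394, adjusted p = 0.0296). For rho the adjusted p was 0.131 and 0.245. On slides 1, 2 and 3, r was 0.633, 0.1 and 0.985 for STAT5B with ELF5, and -0.976, 0.753 and -0.853 for SOCS2 with ELF5. Without cows 8027 and 1018, r was 0.316 for STAT5B with ELF5 and -0.24 for SOCS2 with ELF5, with no test on the other 10 cows. Leaving them out also narrows the range, as they are the farthest from the ELF5 median. These 2 cows, 1 of each diet and both on slide 3, had the lowest ELF5, at 4.95 and 5.19. They had the lowest STAT5B, at -1.41 and -1.46, and the highest SOCS2, at 1.93 and 1.08. Their arrays also had the highest shares of probes well above background, at 76.0 and 78.1%. Over the 12 cows this share had an r of -0.493 with ELF5, -0.52 with STAT5B and 0.419 with SOCS2. None of these passed an adjusted p of 0.05 (permutation test). For ELF5 the rho was -0.594 (permutation test, p = 0.0453, adjusted p = 0.3115). Without cows 8027 and 1018, r was -0.0764, 0.0152 and -0.133. The part of this share in the values of these cows was not tested.

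Weaker relations joined ELF5, STAT5A and CISH. Their r was 0.621 for STAT5A with ELF5 (adjusted p = 0.093), 0.633 for STAT5A with CISH (adjusted p = 0.093) and 0.519 for ELF5 with CISH (adjusted p = 0.213), all by permutation test. None passed the threshold after adjustment. After the means of diet and slide were removed, r was 0.749, 0.792 and 0.787, as values with no test. Without cows 0015 and 1024, the farthest from the median for CISH, r was 0.37 for STAT5A with CISH and 0.402 for ELF5 with CISH, and without cows 8027 and 1018 it was 0.533 for STAT5A with ELF5 and 0.742 for ELF5 with CISH. On slides 1, 2 and 3, r for ELF5 with CISH was 0.763, 0.881 and 0.832, over 4 cows each. PRLR, in contrast, had r of -0.45 to 0.23 with the other 5 genes, and none of these passed an unadjusted p of 0.05.

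ELF5 followed the milk protein genes across cows. The mean log2 signal of the 5 matched milk protein genes (CSN1S1, CSN1S2 and CSN3, which encode caseins, LALBA, which encodes α-lactalbumin, and PAEP, which encodes β-lactoglobulin) was 8.07 to 9.76 in CONT and 8.61 to 10.2 in REST. It rose with ELF5 (r = 0.873, rho = 0.832; permutation test, p = 0.00018, adjusted p = 0.00189 over 18 relations). The relation held without cows 8027 and 1018 (r = 0.758) and after the means of diet and slide were removed (r = 0.882). Within slides r was 0.503, 0.977 and 0.975. By gene it was 0.936 for LALBA, 0.925 for CSN1S2, 0.771 for CSN1S1, 0.748 for CSN3 and 0.572 for PAEP. CSN1S1 and PAEP were saturated on 1 array each.

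The epithelial markers took the opposite direction. The mean log2 signal of the 8 markers was 2.27 to 3.64 in CONT and 2.13 to 3.42 in REST, and it fell as ELF5 rose (r = -0.884, rho = -0.923; permutation test, p = 0.00021, adjusted p = 0.00189). It held without cows 8027 and 1018 (r = -0.866) and within each slide (-0.92, -0.745 and -0.987). The markers did not act as 1 group. KRT18 (-0.914) and KRT8 (-0.777), keratins of luminal cells, KRT14 (-0.914) and KRT5 (-0.842), keratins of basal and myoepithelial cells, and KRT7 (-0.818) and the adhesion gene CDH1 (-0.764) had negative r with ELF5. EPCAM, the general epithelial adhesion marker, had an r of 0.03, and KRT19, another luminal keratin, had 0.494. The leukocyte marker level had no common relation with ELF5: r was 0.136 over all cows, 0.581 in CONT, -0.406 in REST, 0.111, -0.996 and 0.683 on slides 1, 2 and 3, and -0.33 without cows 8027 and 1018.

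These relations were looked for after the values of ELF5 had been seen, and they are across cows of 2 diets on the same arrays. They share the 75th percentile of each array, and ELF5 itself had an r of -0.611 with the log2 of that percentile (rho = -0.58; permutation test, p = 0.0346, adjusted p = 0.307 over 12 relations). STAT5A had an r of -0.571 with the share of probes well above background (permutation test, p = 0.0521, adjusted p = 0.307). Without cows 1024 and 0049 it was -0.263. With quantile normalization, the r of ELF5 was 0.886 with the milk protein genes and -0.921 with the epithelial markers. Of the 18 relations of the 6 genes with the milk protein, epithelial and leukocyte levels, no other passed an adjusted p of 0.05 (permutation test). STAT5B had an r of 0.634 with the milk protein level, which was 0.122 without cows 8027 and 1018. With the epithelial markers STAT5A had an r of -0.694 and STAT5B of -0.685 (permutation test, adjusted p = 0.0574 for both). Without the 2 cows farthest from the median of each gene these were -0.562 and -0.488.

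**Figure D3:**
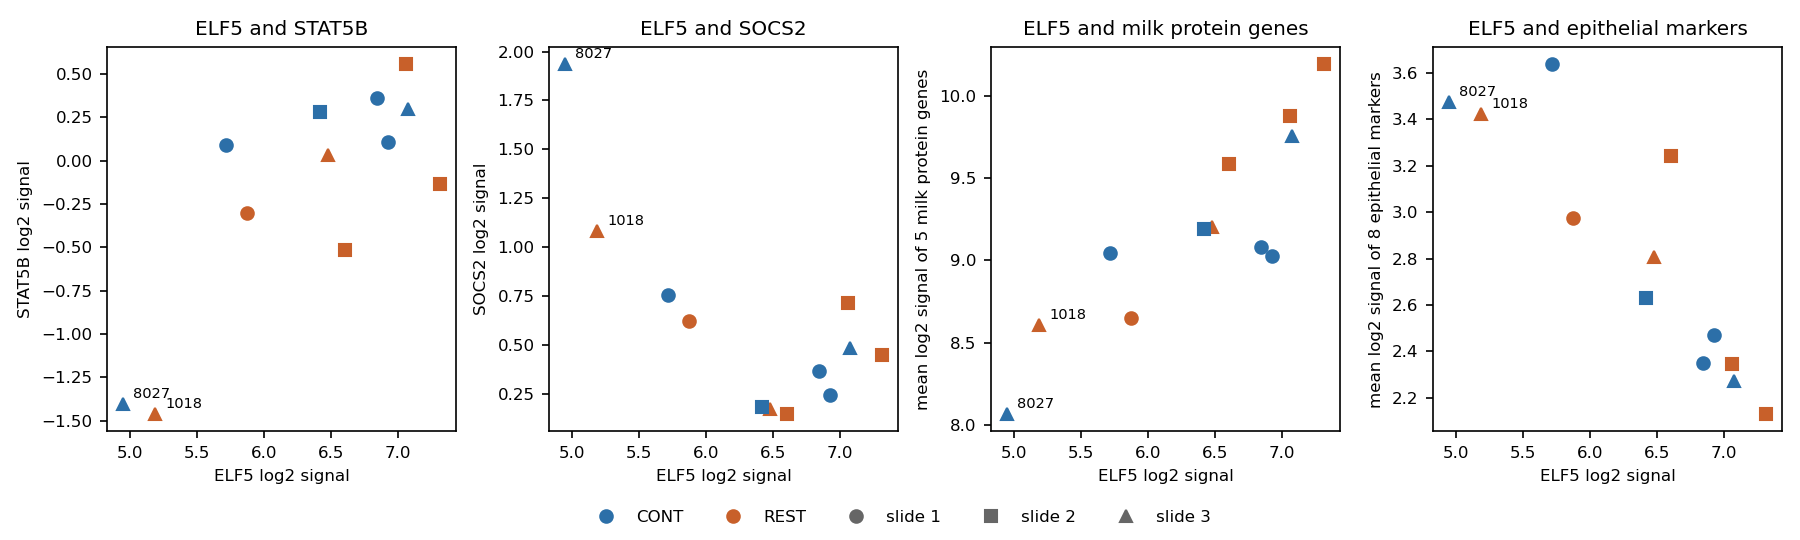
Log2 signal of ELF5 in the 12 cows (x axes) against that of STAT5B, SOCS2, the mean of 5 milk protein genes and the mean of 8 epithelial markers (y axes), all relative to the array's 75th percentile, with diet given by color and slide by marker. Cows 8027 and 1018 lie apart in the STAT5B and SOCS2 panels, while the 2 panels on the right show a gradient over all cows, with r = 0.873 and r = -0.884.

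**Figure D4:**
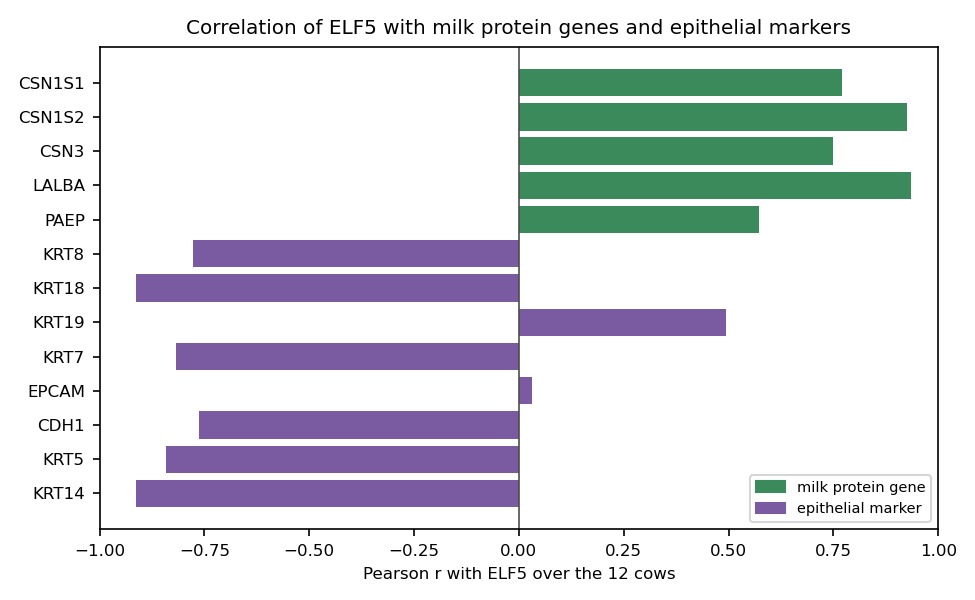
Pearson r of each milk protein gene and each epithelial marker with ELF5 over the 12 cows (bars, starting at 0). All 5 matched milk protein genes are above 0 (0.572 to 0.936), and 6 of the 8 epithelial markers are between -0.914 and -0.764, with EPCAM and KRT19 as the exceptions.

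The 3 genes whose pattern over the 12 cows was most like that of ELF5, among 9082 named genes well above background on all arrays, were RAB26 (r = 0.992), AGPAT1 (r = 0.985) and TMEM171 (r = 0.982). RAB26 encodes a small GTPase of secretory vesicles, and AGPAT1 an enzyme of triacylglycerol synthesis. The values for ELF5 were higher than those of the other genes: the highest r was 0.945 (CMC2) for STAT5B, 0.94 (KRR1) for SOCS2, 0.911 (TMEM200C) for STAT5A, 0.867 (TXNDC12) for CISH and 0.848 (LOX) for PRLR. They are the highest of 9082 correlations over 12 arrays and are given as a description.

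The rest of the pathway gave no call either. Of the other genes listed around these members, none passed the threshold after either adjustment (limma), and all counts below are for the brightest probe of a gene. The slide block also moved the median log2 FC of all named genes, from -0.03 to 0.01, so small changes of sign are not particular to a list. Of 9 matched ligands and receptors that couple to JAK2, 6 had the higher REST mean and 3 the lower one, and the median log2 FC was 0.06. GHR, the growth hormone receptor, had 0.03, EPOR 0.08, the cytokine receptor chain CSF2RB 0.60 and IFNGR1 -0.20. With slide as a block GHR was at -0.06, CSF2RB at 0.35 and IFNGR1 at -0.08. The prolactin gene PRL itself was well above background on 6 of the 12 arrays. Of 7 other JAK and STAT genes, 3 were higher and 4 lower, with a median of -0.04, while with slide as a block 6 were higher and 1 lower, with a median of 0.02. JAK1 had a log2 FC of 0.23 and STAT3 of 0.15, while TYK2 had -0.09 and STAT2 had -0.29. The blocked values were 0.07 for JAK1, 0.34 for STAT3, 0.02 for TYK2 and -0.14 for STAT2. Of 11 other SOCS genes and pathway inhibitors, 8 were higher and 3 lower, with a median of 0.09. With slide as a block 6 were higher and 5 lower, with a median of 0.01 (0.0062). Among them SH2B3, an adaptor that restrains JAK2, had 0.33 (0.01 with slide as a block), CAV1 0.20, SOCS5 -0.01 and the phosphatase PTPN2 had -0.22 (-0.14 with the block). None of these genes had an unadjusted p under 0.05.

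All 5 matched milk protein genes had the higher REST mean, and the median of their log2 FC was 0.35. CSN2, another casein gene, had no matched probe. In the model with slide as a block 4 of the 5 were higher, the median was 0.14, and LALBA was at -0.15. The median was 0.20 without REST cow 0049 and reached 0.47 without REST cow 1018. PAEP had 0.42 (standard error 0.27; 0.14 with the block), CSN1S1 0.37 (standard error 0.27; 0.14 with the block), CSN1S2 0.31 (standard error 0.37; 0.12 with the block) and LALBA 0.19 (standard error 0.58), and none of the 5 had an unadjusted p under 0.05 (limma). Of 10 other STAT5 targets, 8 were higher and 2 lower, with a median of 0.14. The kinase PIM1 had 0.69, XDH, which encodes an enzyme that also coats milk fat globules, 0.25 (0.04 with slide as a block), ID2 0.01 (0.00427 with the block) and CCND1 -0.11. Of 9 factors that act with STAT5 in the alveolus, 6 were higher and 3 lower, with a median of 0.12. With slide as a block 5 were higher and 4 lower, with a median of 0.02. The median was -0.02 with the mean over probes and -0.03 to 0.22 with each cow left out, so that it has no settled direction. PGR had 0.37, EHF, an ELF5 relative, 0.23 (-0.02 with slide as a block), YBX1 -0.08 (-0.05 with the block) and the glucocorticoid receptor NR3C1 had -0.24 (-0.44 with the block). In the IL6 family and STAT3 group, 6 of 10 were higher and 4 lower, with a median of 0.04, or 0.19 with slide as a block. LIFR had 0.26, IL6R 0.06, OSMR -0.59 and TNF -0.90. With the block IL6R was at 0.19, OSMR at -0.33 and TNF at -0.56. None of these groups had a gene under an unadjusted p of 0.05.

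**Figure D5:**
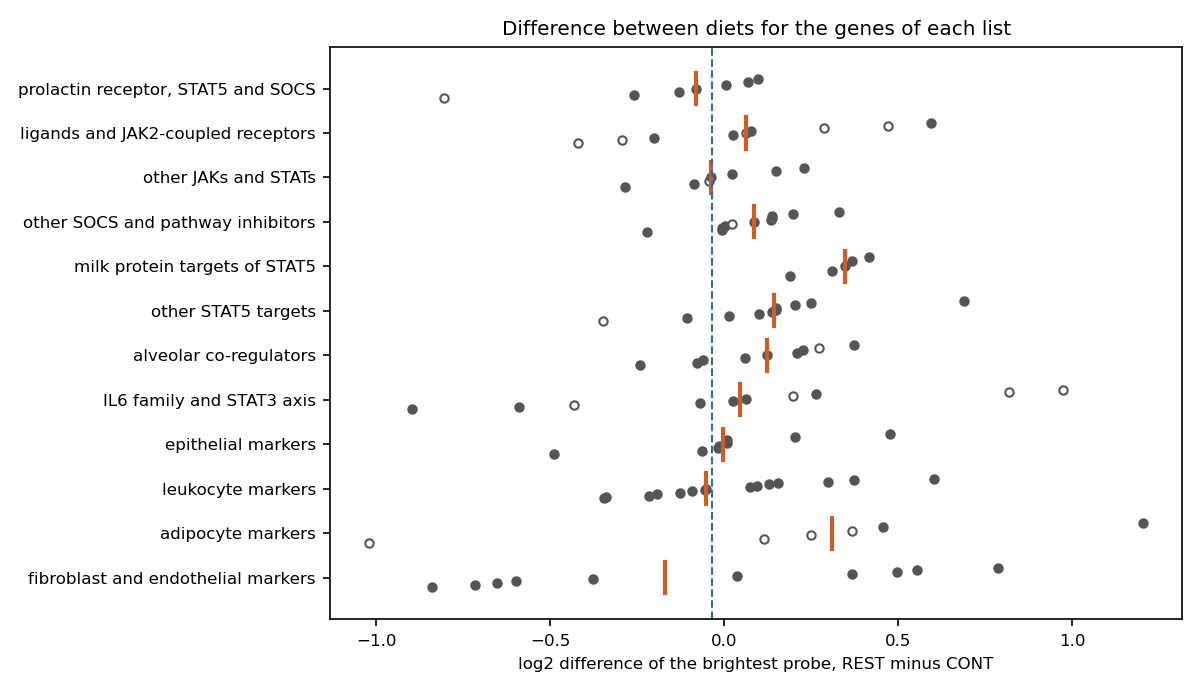
Log2 difference of the brightest probe of each gene, REST minus CONT (x axis), for each gene list (rows), with open points for genes not well above background on all 12 arrays. Orange bars are list medians, and the dashed line is the median of all named genes (-0.03). The milk protein genes have a median of 0.35, and no point on the plot passed the adjusted threshold.

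Leukocyte and epithelial markers overlapped between diets. The mean log2 signal of the 14 leukocyte markers was 0.89 to 1.52 in CONT and 0.94 to 1.55 in REST, and of 15 matched markers 7 were higher and 8 lower. Of the 8 epithelial markers, 4 were higher and 4 lower, and with slide as a block 7 were higher and 1 lower, with a median log2 FC of 0.18. Of 6 matched adipocyte markers, 5 were higher and 1 lower, with a median log2 FC of 0.31 that was 0.14 with the mean over probes. Only 2 of the 6 were well above background on all arrays. These were FABP4, with a log2 FC of 1.2 (1.16 with slide as a block), and CFD, with 0.46 (0.39 with the block). Neither had an unadjusted p under 0.05 (limma, 0.0727 and 0.0716). Their mean log2 signal was 2.93 to 5.42 in CONT and 5.11 to 5.92 in REST. The 10 fibroblast and endothelial markers had a median log2 FC of -0.17, or 0.04 with slide as a block. Among them LUM (-0.84), COL1A1 (-0.72) and COL1A2 (-0.65) were lower and VWF (0.79) higher at an unadjusted p under 0.05 (limma), as was CD3D (0.60) among the leukocyte markers, where 2.64% of the named genes were under this p. With slide as a block COL1A1 was at -0.39 and COL1A2 at -0.45, LUM at -0.83, VWF at 0.90 and CD3D at 0.50. The part of these cell types in the values of the pathway genes was not tested.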

How the data were processed

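Per the file headers, the authors scanned 1 Cy3 array per cow and obtained spot intensities with Agilent Feature Extraction 11.0.1.1, after background correction and spatial detrending; the deposited intensities are not normalized between arrays. Non-control spots were kept, outlier spots were set to missing, log2 intensities were shifted by the array's 75th percentile and spots of a probe were averaged. Probes were named by RefSeq accession from a table of another genome assembly, so no positions or sequences are given. The brightest probe stands for a gene. REST and CONT were compared with limma 3.58.1 (R 4.3.3; lmFit and eBayes, two-sided) over all 43653 probes, with Westfall-Young adjustment over 100 of 462 distinct regroupings of the cows (lowest possible value 0.01), as the study's methods name it, and Benjamini-Hochberg beside it. The number of arrays limits the precision. P-values of correlations used 100000 resamples. The members and lists were chosen with earlier results of these data known. Named genes are every member, the 2 highest and 2 lowest of each list around the pathway among well-measured genes, and the genes most like a member. Both well-measured adipocyte markers are also named. The genes beside ELF5 and those under an unadjusted p of 0.05 in the marker lists were chosen after their values were seen. The alternatives were quantile normalization, the array median, normexp (offset 50), a filter on dim probes, outlier spots kept, slide as a block, an intensity trend, the mean over probes, the series matrix and leaving out each cow. The procedure was tested on simulated data. These had independent noise for each probe and no slide effect, so they do not cover the uneven slides.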

Additional observations from a re-analysis of the deposited data

Results flagged for a closer look

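A total of 3 of the 22 sets of 6 cows (11 probes in 2 diets) held 1 cow far from the other 5 by Dixon's test, where chance flags about 1 in 20, or 1.1 of 22. The log2 signal of STAT5B in CONT cow 8027 was -1.41, while the other 5 CONT cows lay between 0.09 and 0.36. The log2 signal of SOCS2 in the same cow was 1.93, and the other 5 lay between 0.18 and 0.76. For the second STAT5A probe, REST cow 0049 had a log2 signal of -3.23 and the other 5 REST cows lay between -3.99 and -3.74.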

How the results depend on the processing

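None of the 7 measured genes was called under any alternative run, and their lowest Benjamini-Hochberg adjusted p was 0.945 (limma). Genes near 0 changed sign. The log2 FC of STAT5A was -0.0204 with quantile normalization, -0.0524 with the array median, -0.0157 with normexp and -0.00665 with the mean over its probes. The mean over probes gave 0.31 for PRLR. ELF5 was at -0.0369 with quantile normalization and -0.0874 with slide as a block. With each cow left out, log2 FC ranged from -0.11 to 0.28 for PRLR, -0.0839 to 0.103 for STAT5A, -0.18 to 0.34 for ELF5, -0.22 to 0.10 for CISH, -0.24 to 0.13 for SOCS2, -0.53 to -0.03 for STAT5B and -1.18 to -0.61 for SOCS3. The medians of the lists of ligands and receptors (-0.11 to 0.21), other JAKs and STATs (-0.12 to 0.10), other SOCS genes and inhibitors (-0.00263 to 0.13), IL6 family (-0.06 to 0.16), leukocyte (-0.13 to 0.06), epithelial (-0.18 to 0.21) and fibroblast and endothelial markers (-0.32 to 0.00641) changed sign, and those of other STAT5 targets (0.09 to 0.17) and adipocyte markers (0.25 to 0.41) did not. The count of genes higher in REST was 3, 1 with quantile normalization, and 1 to 4 with each cow left out. It was 1 without CONT cow 0055 or REST cow 0049. The count at an unadjusted p under 0.05 was 0 to 1 with each cow left out, the 1 being SOCS3 without REST cow 0078. The cause of these changes was not tested. No paired analysis was possible because the labels number no cow in common between the diets.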
